A study of Mus musculus with 8 samples.

Results

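The genes described here are 3 serotonin receptors (Htr2c, Htr2b and Htr7), the monoamine oxidases Maoa and Maob, and Ddc, the aromatic amino acid decarboxylase. They were listed by name, with earlier results of these data known, and they are 6 of the 23284 genes in the count table. Of these 6 genes, 5 passed the filter on low counts and were tested, and Htr7 did not pass. Expression was measured by RNA sequencing in mouse choroid plexus at stage E18.5, from the telencephalon (the lateral ventricles) or the hindbrain (the fourth ventricle). Whole choroid plexus came from CD1 embryos, and epithelial cells came from ICR (CD1) embryos and were purified by fluorescence-activated sorting for Ttr::RFP, a red fluorescent reporter of the transthyretin gene. There were 4 groups with 2 libraries in each. The series' design text states that both regions were taken from the same brains, whereas the preparations came from different brains. The tests reported here compare group means and do not use this pairing, which was fitted only as an alternative setting. The sources used here do not say whether embryos were pooled, or whether the embryos used whole carried the reporter. Xist, an RNA of the inactive X chromosome, and transcripts of the Y chromosome were both read in each of the 8 libraries. Each library thus held RNA of both sexes.

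Serotonin acts on a family of receptors that are, apart from the ion channel subunits of the Htr3 genes, coupled to G proteins. Receptors of the Htr2 group act through Gq and phospholipase C, which raises intracellular calcium, whereas Htr7 acts through Gs and cyclic AMP. The choroid plexus epithelium is a classical site of abundant Htr2c transcript and binding. Ddc makes serotonin and dopamine from their amino acid precursors, and the monoamine oxidases, enzymes of the mitochondrial outer membrane, break monoamines down: Maoa prefers serotonin and noradrenaline, and Maob prefers phenylethylamine.

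Total counts lay between 8849053 and 31613434 per library. Values are given as CPM, which are counts relative to the scaled library size, and levels are compared between genes only as CPM per kb of exon. Transthyretin (Ttr), the main secreted protein of choroid epithelium, lay between 139350.2 and 281816 CPM in the 8 libraries. Markers of other cell types remained in the sorted cells. All 10 endothelial markers were lower there in both regions (summed level 738 to 807 CPM in whole tissue and 129.6 to 202 CPM in sorted cells). Of the 10 macrophage markers, however, 7 were lower in telencephalic and 1 in hindbrain sorted cells, and of 9 tested mesenchymal markers 6 and 2. Over all 15698 genes tested, 1966 were lower in telencephalic and 1865 in hindbrain sorted cells, at an adjusted p below 0.05. Immediate early genes, which respond to handling and stimulation of cells, summed to 71.3 to 96 CPM in whole tissue and to 892 and 956 CPM in telencephalic and 1629 and 1784 CPM in hindbrain sorted cells. Their part in the differences between preparations below was not tested.

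Htr2c was by far the most abundant of the serotonin receptor genes in all 8 libraries. It stood at 785 and 758 CPM in the telencephalic whole libraries (replicates 1 and 2) and at 705 and 678 CPM in the hindbrain whole libraries. In sorted cells it stood at 983 and 1085 CPM for the telencephalon and at 934 and 935 CPM for the hindbrain. On this scale every sorted library lay above every whole library, and within each preparation both telencephalic libraries lay above both hindbrain ones. This order depends on the scaling, as given below. In CPM per kb of exon, the level of Htr2c was 153 ± 3.8 (SD, n = 2) and 137 ± 3.9 in telencephalic and hindbrain whole tissue, and 205 ± 14 and 185 ± 0.074 in telencephalic and hindbrain sorted cells. On that scale 98.6% to 99% of the 14123 tested genes with a known exon length were lower than Htr2c, depending on the group.

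Htr2c held 98.76% to 99.37% of the summed CPM per kb of the 14 serotonin receptor genes in each library, and was 126 to 425 times as high as the second-ranked gene, Htr2b. The remaining receptor genes were at or near the limit of counting. Htr7 had 1, 1, 1 and 2 counts in the whole libraries and 0 in each of the 4 sorted libraries. A count of 0 in both sorted libraries of a region allows a level of up to 0.0705 CPM for the telencephalon and 0.0548 CPM for the hindbrain, taking 3 counts over the group as the floor. Htr6 had 0 counts in every library. Of the 11 receptor genes outside the chosen 3, only Htr3b, a subunit of the ion channel receptor, passed the filter, with 4 to 16 counts per library. Htr3b was not called in any of the 5 comparisons (adjusted p between 0.433 and 0.974 by edgeR's quasi-likelihood test).

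**Figure D1:**
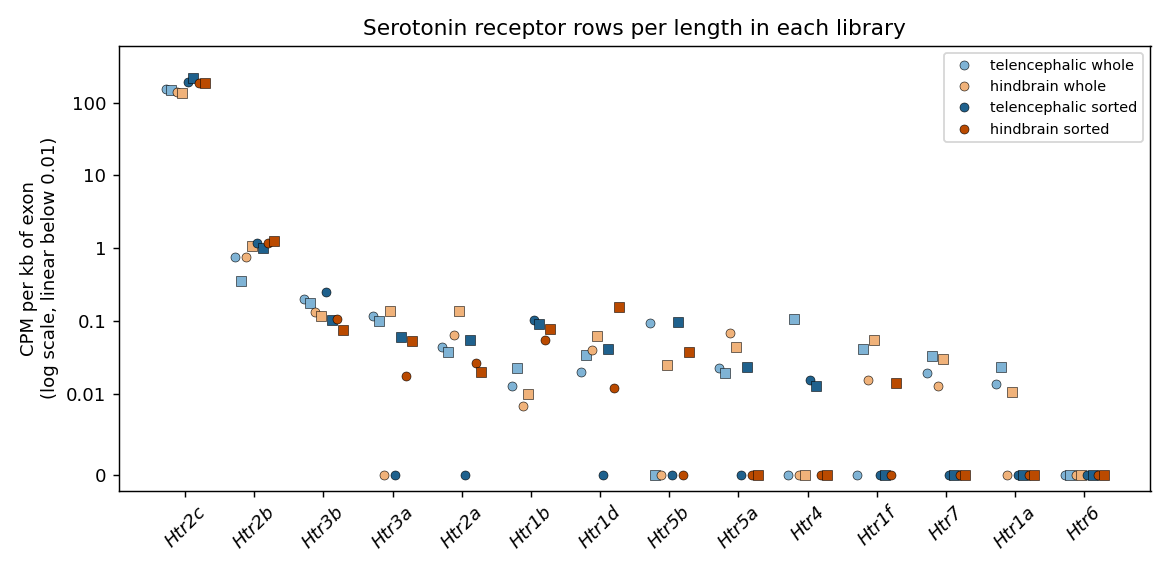
CPM per kb of exon (log scale, linear below 0.01) of 14 serotonin receptor genes in each library, with circles for replicate 1 and squares for replicate 2. Htr2c lies between 134 and 215 in the 8 libraries, Htr2b between 0.352 and 1.27, and the other genes are lower or at 0.

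The first pair of comparisons asked whether hindbrain choroid plexus differs from that of the telencephalon, which is the regional question in the series' title. Htr2c changed by -0.16 ± 0.10 (log2, SE of the fit) from telencephalic to hindbrain whole tissue, with a 95% interval of -0.38 to 0.07 and an adjusted p of 0.521 by edgeR. In sorted cells the difference was -0.15 ± 0.10 (interval -0.37 to 0.08, adjusted p = 0.396). In these CPM the libraries of the regions did not overlap in either preparation, but the differences did not pass the test. The intervals leave room for a hindbrain level up to 1.3-fold lower in whole tissue and 1.29-fold lower in sorted cells. With library totals as the scale the differences were -0.08 in whole tissue and 0.05 in sorted cells, so the sign in sorted cells was reversed. The region effects of the preparations differed by 0.01 ± 0.15 (adjusted p = 0.997).

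Sorted cells were then set against whole tissue, which holds stroma, vessels and blood cells besides the epithelium. Htr2c rose in sorted cells of both regions, by 0.42 ± 0.10 (log2; 1.34-fold, 95% interval 1.15 to 1.57, adjusted p = 0.0121 by edgeR) in the telencephalon and by 0.43 ± 0.10 (1.35-fold, interval 1.16 to 1.58, adjusted p = 0.011) in the hindbrain. In bulk RNA, fewer cells of a type and less RNA per cell cannot be told apart. The 12 choroid epithelial markers had medians of 0.408 and 0.389 in these comparisons. Of them, 7 and 6 were higher and 0 lower (3 higher and 1 lower, and 0 called, on library totals). Over all 15698 genes tested, 1551 and 1607 were higher. Both calls for Htr2c depended on the scaling, and both were lost in some fits with a library left out. With library totals as the scale the changes were 0.11 (adjusted p = 0.577) and 0.24 (adjusted p = 0.201), on a scale that moved the median of all genes to -0.30 and -0.19. A change of scale moves all genes by nearly the same amount. The distance of Htr2c from that median, 0.41 and 0.43, is therefore kept by construction and is no support for the calls. The telencephalic call was lost without telencephalic whole replicate 1 (0.45), telencephalic whole replicate 2 (0.40) or telencephalic sorted replicate 2 (0.35). The hindbrain call was lost without hindbrain whole replicate 2 (0.40). Such fits leave 1 library in a group, so these losses do not show that a single library carried the change.

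**Figure D2:**
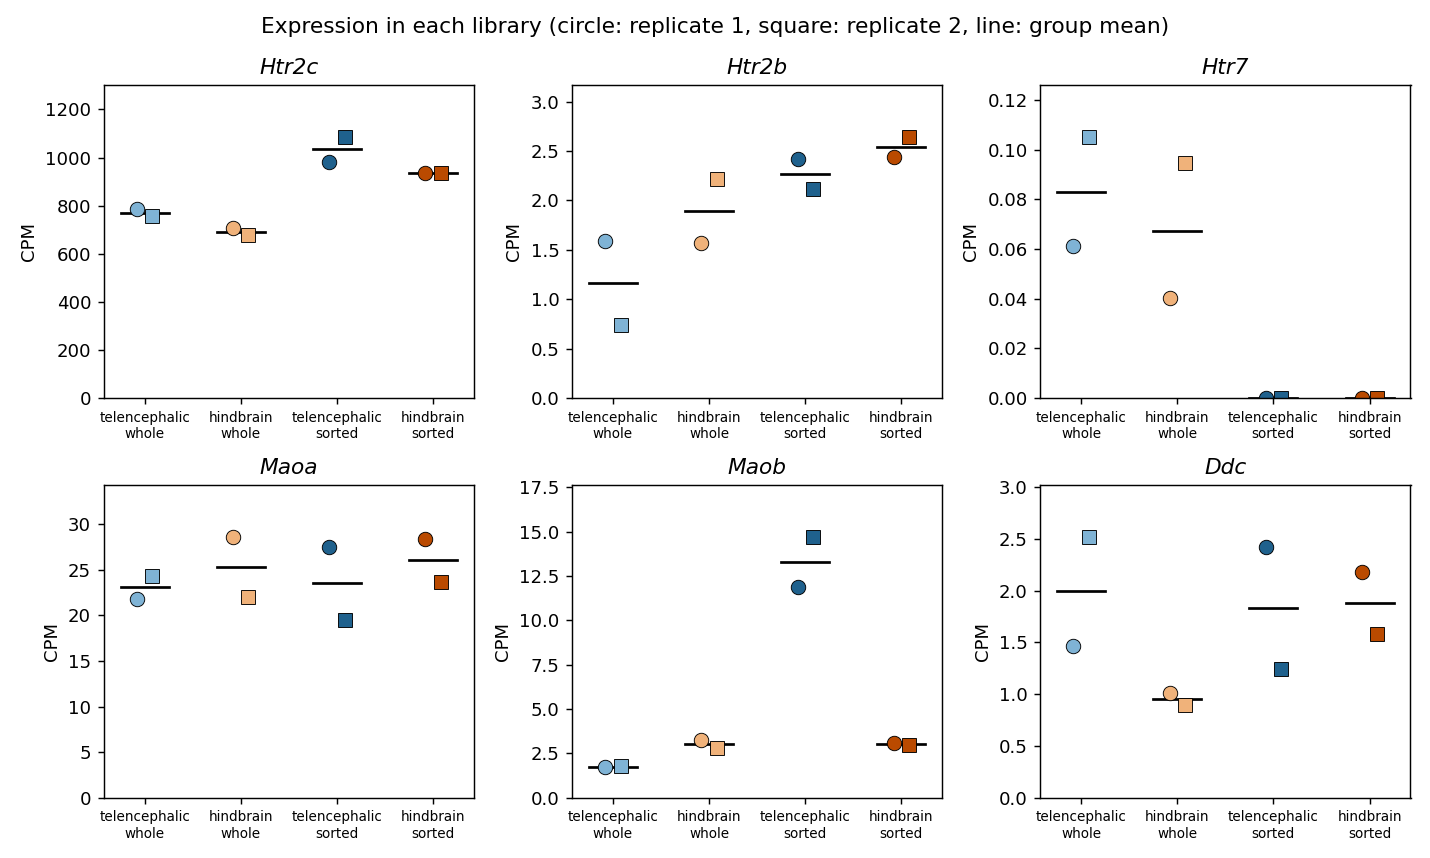
CPM of each of the 6 genes in each library (linear axes that start at 0 and differ between panels), with circles for replicate 1, squares for replicate 2 and lines for group means. Htr2c is higher in every sorted library than in every whole library, and Maob stands at 11.9 and 14.7 CPM in telencephalic sorted cells against 1.71 to 3.27 CPM elsewhere.

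Htr2c carries small RNA genes in its introns, and 6 of these had rows of their own in the count table: the snoRNA Snora35 and the microRNA hairpins Mir764, Mir1912, Mir1264, Mir1298 and Mir448. In the GENCODE M21 annotation they lie on the X chromosome, on the strand of Htr2c, and share 0 bases with its exons. The rows count cDNA reads over the hairpin or snoRNA interval, so they cannot separate the processed small RNA from unspliced host transcript. The mature microRNAs of these hairpins are printed to show what the Htr2c locus encodes besides the receptor. RefSeq (GRCm38.p6) holds 8 mature sequences for the 5 hairpins, given 5′ to 3′ with the seed (bases 2 to 8) in capitals.
mmu-miR-764-5p: gGUGCUCAcauguccuccu
mmu-miR-764-3p: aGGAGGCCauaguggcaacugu
mmu-miR-1912-3p: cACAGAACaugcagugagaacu
mmu-miR-1264-3p: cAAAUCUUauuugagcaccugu
mmu-miR-1298-5p: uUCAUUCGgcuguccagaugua
mmu-miR-1298-3p: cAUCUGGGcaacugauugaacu
mmu-miR-448-5p: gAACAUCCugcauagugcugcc
mmu-miR-448-3p: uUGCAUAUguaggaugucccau
The 8 seeds all differ, so the hairpins do not form a group of shared seed.

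Snora35 moved with Htr2c between preparations, and by more. It stood at 7.77 and 15.7 CPM in telencephalic whole tissue, 8.87 and 14.2 CPM in hindbrain whole tissue, 29.5 and 30.1 CPM in telencephalic sorted cells and 27.2 and 31.8 CPM in hindbrain sorted cells. The sorted libraries did not overlap with the whole ones, and within whole tissue replicate 2 was the higher in both regions. Snora35 rose by 1.38 ± 0.29 (log2, adjusted p = 0.00462 by edgeR) in the telencephalon and by 1.36 ± 0.27 (adjusted p = 0.00427) in the hindbrain. The telencephalic call was lost without telencephalic whole replicate 1 (0.92, adjusted p = 0.0676).

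For the hairpin rows no change between preparations was called, but their intervals were wide. Sorted minus whole in the telencephalon had 95% intervals (log2) of -1.03 to 0.95 for Mir764, -1.35 to 0.67 for Mir1912 and -0.97 to 1.46 for Mir1264. These include the Htr2c change of 0.42. In the hindbrain they were -0.89 to 0.99, -1.73 to 0.21 and -0.75 to 1.55, and only that of Mir1912 leaves out the Htr2c change of 0.43. Mir764, Mir1912 and Mir1264 passed the filter, at 34 to 109, 50 to 175 and 18 to 80 counts per library, and none was called in any of the 5 comparisons (adjusted p from 0.247 up). Mir448 had 2 to 7 counts per library and Mir1298 had 0 to 9. Summed over the 5 hairpins and set against the host gene, there were 8.57 and 21.2 counts per 1000 Htr2c counts in telencephalic whole replicates 1 and 2, and 11.1 and 22.2 in hindbrain whole replicates 1 and 2. Sorted cells had 11.6 and 7.49 for the telencephalon and 12.5 and 7.5 for the hindbrain. Libraries with the same replicate number within a preparation, which the design text derives from the same brains, had neighbouring values. In each preparation the exact Poisson intervals of the replicates did not overlap in either region (7.04 to 10.3 against 17.9 to 24.8 in telencephalic whole tissue, for example). The spread between replicates in this ratio was therefore larger than the spread between regions within a replicate. The reads were amplified and carry no molecular identifiers, so all such intervals cover counting error only.

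**Figure D3:**
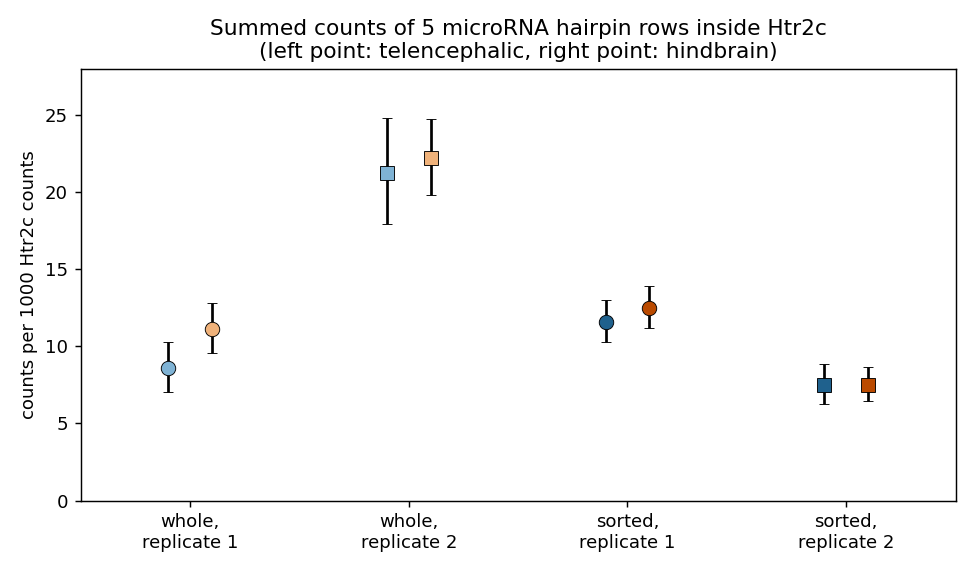
Summed counts of the 5 microRNA hairpin rows inside Htr2c per 1000 Htr2c counts (linear axis from 0), grouped by preparation and replicate number, with the telencephalic library on the left of each pair and bars for exact Poisson 95% intervals. Whole replicate 2 stands at 21.2 and 22.2 and the other pairs lie between 7.49 and 12.5.

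Htr2b, the second Gq-coupled receptor, was low throughout. It had 1.59 and 0.734 CPM in telencephalic whole tissue, 1.57 and 2.22 CPM in hindbrain whole tissue, 2.42 and 2.11 CPM in telencephalic sorted cells and 2.44 and 2.64 CPM in hindbrain sorted cells. Telencephalic whole replicate 2, with 7 counts, was the lowest library, and the sorted and whole libraries overlapped only at hindbrain whole replicate 2. Sorted minus whole gave 0.90 ± 0.44 (log2, interval -0.06 to 1.86, adjusted p = 0.167 by edgeR) in the telencephalon and 0.43 ± 0.40 (adjusted p = 0.485) in the hindbrain, so neither passed the test. The region effects were 0.64 ± 0.45 (adjusted p = 0.561) in whole tissue and 0.16 ± 0.40 (adjusted p = 0.848) in sorted cells. Over the alternative settings and left-out libraries the telencephalic sorted minus whole value ran from 0.51 to 1.62 and the whole-tissue region effect from 0.25 to 1.36, and neither was called in any of them. Htr2b lies inside Psmd1, a proteasome subunit gene on the opposite strand, with 0 shared exon bases. Psmd1 had 96.6 to 155 CPM and the libraries mark no strand, so reads from unspliced Psmd1 over Htr2b exons cannot be told apart from Htr2b reads.

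Maoa, the oxidase with preference for serotonin, was expressed at nearly the same level in every group. It stood at 21.8 and 24.3 CPM in telencephalic whole tissue, 28.6 and 22 CPM in hindbrain whole tissue, 27.5 and 19.5 CPM in telencephalic sorted cells and 28.4 and 23.7 CPM in hindbrain sorted cells. All 4 groups overlapped, and their means spanned 1.13-fold. The region effect was 0.14 (log2) in both preparations, with 95% intervals of -0.29 to 0.57 in whole tissue and -0.28 to 0.55 in sorted cells (adjusted p = 0.816 and 0.698 by edgeR). Sorted minus whole was 0.04 in both regions, with intervals of -0.39 to 0.47 and -0.37 to 0.45. The widest of these 4 intervals ends at a change of 1.48-fold.

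Maob, its neighbour in function and also on the X chromosome, was the gene among the 6 that differed most between groups. It stood at 1.71 and 1.78 CPM in telencephalic whole tissue, 3.27 and 2.79 CPM in hindbrain whole tissue, 11.9 and 14.7 CPM in telencephalic sorted cells and 3.09 and 2.97 CPM in hindbrain sorted cells. Both telencephalic sorted libraries lay far above all others, both telencephalic whole libraries lay below all others, and the hindbrain libraries of the preparations overlapped. From telencephalic to hindbrain sorted cells Maob fell by 2.13 ± 0.25 on the log2 scale, which is 4.37-fold lower (95% interval 3.01 to 6.35, adjusted p = 9.21e-05 by edgeR). In whole tissue it changed by 0.80 ± 0.29 towards a higher level in the hindbrain (interval 0.17 to 1.42, unadjusted p = 0.0169), which did not pass after adjustment (adjusted p = 0.158).

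The region effect on Maob differed between preparations by -2.92 ± 0.38 (log2, adjusted p = 0.00241 by edgeR). Seen from the other factor, Maob rose by 2.93 ± 0.28 in telencephalic sorted cells, 7.6-fold (interval 4.99 to 11.6, adjusted p = 1.48e-05), and changed by 0.00 ± 0.25 in the hindbrain (interval -0.55 to 0.55, adjusted p = 0.999). By fold change this rise ranked 110 from the top among the 15698 genes tested. All 3 calls for Maob held in every alternative setting run and without any 1 of the 8 libraries, with ranges of -2.28 to -1.93, -3.07 to -2.77 and 2.61 to 3.07.

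Markers of other cell types also differed between the sorted groups. Over all 15698 genes tested, 15.2% were called between regions in sorted cells, 1422 higher and 961 lower in the hindbrain. Macrophage markers summed to 33.7 and 55.7 CPM in telencephalic and 186 and 161 CPM in hindbrain sorted cells, and all 10 tested markers were higher in hindbrain sorted cells. Mural markers, of pericytes and smooth muscle, summed to 76.7 and 69.8 CPM against 296 and 265 CPM (8 of 10 higher, 0 lower), and mesenchymal markers to 736 and 771 CPM against 1621 and 1238 CPM (7 of 9 tested higher, 1 lower). Endothelial markers summed to 129.6 and 135 CPM against 202 and 191 CPM (5 of 10 higher, 0 lower). All 4 sums were lowest in the telencephalic sorted libraries, where Maob was highest. Neural progenitor and glial markers summed to 59.3 to 63.9 CPM over the 4 sorted libraries, with 3 of 10 higher and 2 lower in the hindbrain. Neuronal markers summed to 19.4 CPM in both telencephalic libraries against 32 and 35 CPM (1 higher, 2 lower). Most of that sum was Syt1, at 12 and 11 CPM against 27.3 and 30.8 CPM. The median log2 change of the 10 neuronal markers was -0.725, towards a lower level in the hindbrain. None of these lists had a defining marker at 0 in all libraries. Immediate early genes, with 9 of 10 higher and 0 lower in hindbrain sorted cells, and the ribosomal precursor Rn45s, at 166699.9 and 134006 CPM in telencephalic against 63038 and 121358 CPM in hindbrain sorted cells, also differed. The part of these genes in the Maob result was not tested.

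**Figure D4:**
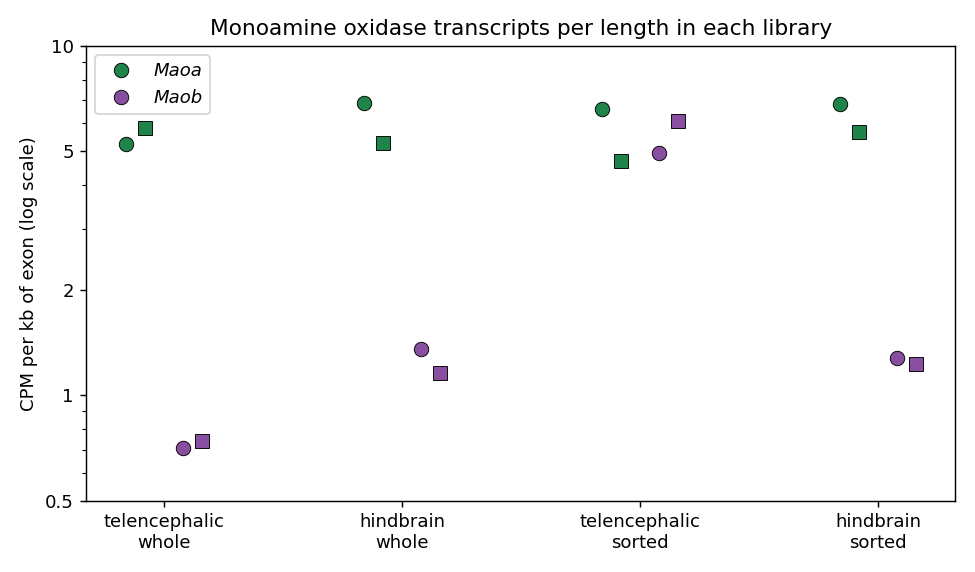
CPM per kb of exon (log scale) of Maoa and Maob in each library, with circles for replicate 1 and squares for replicate 2. Maoa lies above Maob in all groups except telencephalic sorted cells, where the values of the genes overlap.

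Per kb of exon, Maoa exceeded Maob 7.36-fold and 7.9-fold in the telencephalic whole libraries, 5.06-fold and 4.57-fold in the hindbrain whole libraries and 5.31-fold and 4.61-fold in the hindbrain sorted libraries. In the telencephalic sorted libraries the ratio was 1.34 and 0.769. The values of Maoa overlapped between all groups, so the ratio followed Maob. The mean level of Maob per kb was 5.52 ± 0.82 (SD, n = 2) in telencephalic sorted cells, next to 5.64 ± 1.3 for Maoa there, and 0.725 ± 0.02 in telencephalic whole tissue.

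Ddc, the decarboxylase, was low and variable. Its libraries held 1.47 and 2.52 CPM for telencephalic whole tissue, 1.01 and 0.897 CPM for hindbrain whole tissue, 2.42 and 1.24 CPM for telencephalic sorted cells and 2.18 and 1.58 CPM for hindbrain sorted cells, from 19 to 64 counts each. The hindbrain whole libraries were the lowest, and the other 3 groups overlapped. The nearest values to the threshold were the region effect in whole tissue, at -1.03 ± 0.50 (log2, interval -2.11 to 0.06, adjusted p = 0.343 by edgeR), and sorted minus whole in the hindbrain, at 0.97 ± 0.48 (interval -0.06 to 2.01, adjusted p = 0.166). Neither passed the test. An unnamed antisense transcript that overlaps Ddc, 1700042O10Rik, had 0 to 6 counts per library.

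Counted together, 0 of the 5 tested genes were called between regions in whole tissue, where 5.79% of all tested genes were called. At an unadjusted p under 0.05 there was 1, Maob, and DESeq2 also called 0. Between regions in sorted cells 1 of 5 was called (Maob, lower in the hindbrain), against 15.2% of all genes, and 1 of 5 in the test of the difference between region effects, against 1.34%. Sorted against whole telencephalic tissue gave 2 of 5, both higher (Htr2c and Maob), against 22.4%, and the same comparison in the hindbrain gave 1 of 5 (Htr2c), against 22.1%. With 5 genes, shares of this size between regions in sorted cells and between preparations are near the background and are no result about the group. The median log2 change of the 5 genes was 0.14, 0.014, -0.000641, 0.423 and 0.425 in these 5 comparisons, beside 0.00501, -0.00145, 0.00382, 0.0146 and 0.00893 for all genes tested.

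**Figure D5:**
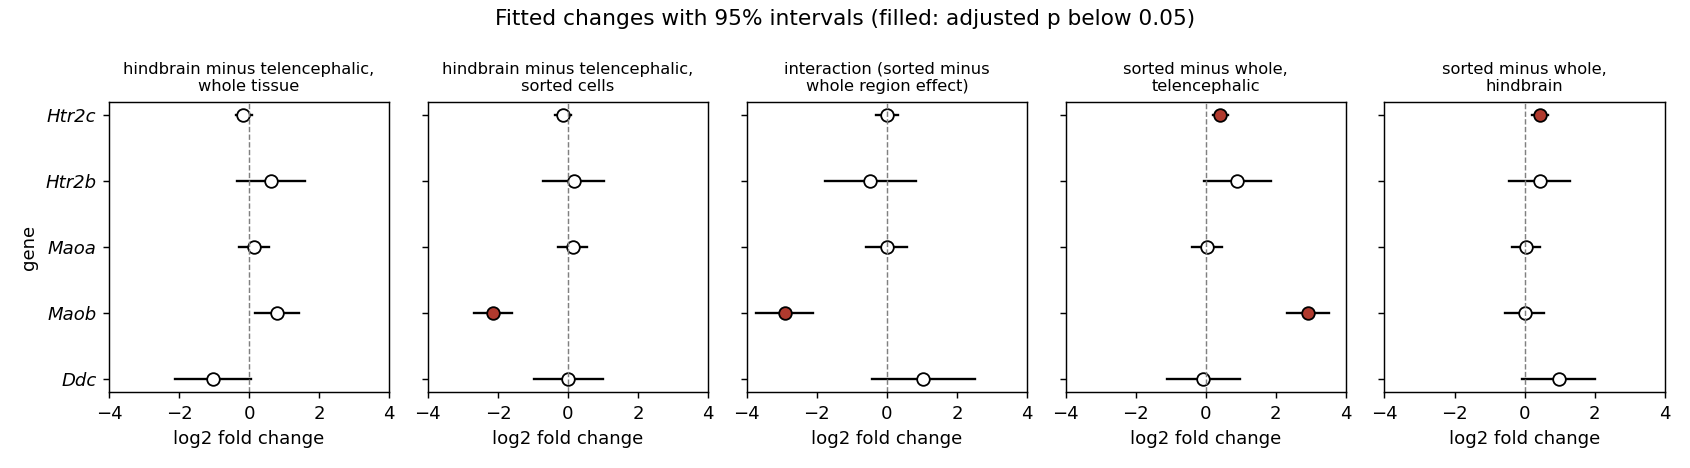
Log2 fold changes of the 5 tested genes with 95% intervals in the 5 comparisons (linear axes from -4 to 4), filled where the adjusted p is below 0.05. Maob is the filled point in the sorted-cell region comparison and in the interaction, Htr2c and Maob are filled for the telencephalic preparation comparison, and Htr2c for the hindbrain one.

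Of the genes upstream of Ddc, the tryptophan hydroxylases that start serotonin synthesis were nearly undetected: Tph1 had 0 to 15 counts per library and Tph2 had 0 to 2. Tyrosine hydroxylase (Th), which starts dopamine synthesis, had 0.691 to 3.25 CPM and was not called in any comparison (adjusted p between 0.107 and 0.936 by edgeR). Among the genes that supply enzyme cofactors, Pdxk, the pyridoxal kinase, was lower in hindbrain than in telencephalic sorted cells, at -0.44 ± 0.13 (adjusted p = 0.0451). Gchfr, a regulator of GTP cyclohydrolase, had only 2 and 4 counts in telencephalic whole tissue and 40 and 23 in telencephalic sorted cells. It was higher in these sorted cells than in whole tissue, at 2.57 ± 0.72 (adjusted p = 0.0229). Both calls were lost when single libraries were left out, with adjusted p up to 0.3 and 0.259. Pdxk also lost its call on library totals (-0.23, adjusted p = 0.264) and when only the libraries compared were fitted (-0.44, adjusted p = 0.0931).

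Of 7 tested monoamine transporters, 1 was higher and 0 lower in the hindbrain in each preparation (5.79% of all genes were called in whole tissue and 15.2% in sorted cells). In sorted against whole tissue 1 was higher and 1 lower in the telencephalon and 1 lower in the hindbrain (22.4% and 22.1% of all genes called). These counts are near the background. Slc29a4, the low-affinity plasma membrane monoamine transporter, stood at 162 and 165 CPM in telencephalic whole tissue, 227 and 262 CPM in hindbrain whole tissue, 267 and 249 CPM in telencephalic sorted cells and 225 and 288 CPM in hindbrain sorted cells. The telencephalic whole libraries were the low ones, and the other groups overlapped. Slc29a4 was 0.58 ± 0.13 (log2, adjusted p = 0.0211 by edgeR) higher in hindbrain than in telencephalic whole tissue and 0.66 ± 0.13 (adjusted p = 0.00402) higher in telencephalic sorted cells than in whole tissue. The first call was lost without telencephalic whole replicate 1, telencephalic whole replicate 2 or hindbrain whole replicate 2 (adjusted p = 0.198, 0.159 and 0.184), and the second on library totals (0.34, adjusted p = 0.0723).

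The organic cation transporter Slc22a2 had 28 and 7 counts in telencephalic whole tissue and 138 and 84 in hindbrain whole tissue. In sorted cells it had only 7 and 6 counts for the telencephalon, and 81 and 30 for the hindbrain. Slc22a2 was 2.69 ± 0.61 (adjusted p = 0.0108 by edgeR) higher in hindbrain than in telencephalic sorted cells. It changed by -2.03 ± 0.66 (adjusted p = 0.0444) in telencephalic sorted cells against whole tissue. Leaving out replicate 1 of either sorted group ended the first call (adjusted p = 0.124 for the telencephalic and 0.0641 for the hindbrain library), and leaving out any 1 of 6 libraries ended the second (adjusted p up to 0.444). Slc22a3, a related transporter, had 0 and 1 counts in telencephalic whole tissue, 19 and 11 in hindbrain whole tissue and 0 in all sorted libraries. Slc22a3 passed the filter only through hindbrain whole tissue, the group where it was high. Its call as lower in hindbrain sorted cells (adjusted p = 0.012 by edgeR), the 1 counted above, is therefore no separate support. Taking 3 counts over the group as the floor, the hindbrain sorted level was at least 11.9-fold lower than in whole tissue. This bound leaves out the counting error of the whole libraries. The call was lost without hindbrain whole replicate 2. The serotonin transporter Slc6a4 had 14 to 41 counts per library, the vesicular transporter Slc18a2 had 7.26 to 12 CPM, and neither was called.

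Of 8 further enzymes of monoamine breakdown, 0 were called between regions in either preparation. Over all genes 5.79% were called between regions in whole tissue and 15.2% in sorted cells. With 8 genes, a count of 0 is near that background. Aldh9a1, an aldehyde dehydrogenase, was lower in sorted cells of both regions, at -0.37 ± 0.12 (adjusted p = 0.0446 by edgeR) and -0.46 ± 0.12 (adjusted p = 0.0164). The telencephalic call was lost without any 1 of 5 libraries (adjusted p up to 0.316) and the hindbrain one without hindbrain whole replicate 2 (adjusted p = 0.123). The reductase Akr1a1 had 155 to 232 CPM and was not called in any comparison.

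Downstream of the Htr2 receptors, 16 of 16 genes of Gq coupling were tested. In sorted against whole tissue 8 were lower and 1 higher in the telencephalon, and 6 lower and 2 higher in the hindbrain. Over all genes 22.4% and 22.1% were called, or 1966 and 1865 of 15698 lower. On library totals these counts were 12 lower with 0 higher and 8 lower with 1 higher. Plcb1, a phospholipase C activated by Gq, stood at 9.64 to 13.8 CPM in whole tissue and 0.492 to 1.05 CPM in sorted cells, without overlap. It fell by 4.06 ± 0.30 (log2, adjusted p = 1.83e-06 by edgeR) in the telencephalon and changed by -3.72 ± 0.27 (adjusted p = 1.90e-06) in the hindbrain. The calcium release channel Itpr1 was chosen after its values were seen, as the lone gene of the list called higher in both regions. It stood at 597 to 718 CPM in whole tissue and 797 to 995 CPM in sorted cells. Its changes were 0.40 ± 0.11 (adjusted p = 0.0232 by edgeR) in the telencephalon and 0.46 ± 0.11 (adjusted p = 0.012) in the hindbrain. Both calls were lost on library totals (0.08, adjusted p = 0.703, and 0.27, adjusted p = 0.194), the telencephalic one without telencephalic whole replicate 1, whole replicate 2 or sorted replicate 2 (adjusted p up to 0.165), and the hindbrain one without either hindbrain whole library (adjusted p up to 0.0757). Prkcd, a protein kinase C, was 0.79 ± 0.15 (adjusted p = 0.00308) higher in hindbrain sorted cells than in whole tissue, and Prkcb changed by -1.61 ± 0.20 (adjusted p = 0.000168). Endothelial markers were lower in the same comparisons for 10 of 10 genes in each region, and their part in these falls was not tested.

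Between regions, 1 of the 16 Gq genes was lower in hindbrain whole tissue, and 4 were higher and 0 lower in hindbrain sorted cells (7 higher on library totals), where 5.79% and 15.2% of all genes were called. Of the 4, Plcb2, a phospholipase C, lost its call when only the libraries compared were fitted (adjusted p = 0.117) and in 7 of the 8 fits with a library left out (adjusted p up to 0.188), and Rgs2, another regulator of Gq signals, lost it without telencephalic sorted replicate 1 (adjusted p = 0.0792). The gene lower in whole tissue was Rgs4, which shuts off Gq signals, and it was also among the 4. Rgs4 stood at 18.7 and 18.1 CPM in telencephalic whole tissue, 10.3 and 9.16 CPM in hindbrain whole tissue, 2.84 and 3.47 CPM in telencephalic sorted cells and 6.62 and 7.3 CPM in hindbrain sorted cells, with no overlap between groups. Its region effect was -0.92 ± 0.19 (adjusted p = 0.0133 by edgeR) in whole tissue and 1.15 ± 0.21 (adjusted p = 0.00269) in sorted cells, and these differed by 2.07 ± 0.29 (adjusted p = 0.00366). The whole-tissue call was lost without any 1 of the 4 whole libraries, with adjusted p between 0.0632 and 0.156. Mural markers were higher for 8 of 10 genes in hindbrain sorted cells and for 0 of 10 in hindbrain whole tissue.

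For Gs coupling, the route of Htr7, 16 of 16 genes were tested, and 2 were higher in hindbrain whole tissue, 4 higher and 1 lower in hindbrain sorted cells, 2 lower in telencephalic sorted cells against whole tissue and 5 lower with 1 higher in hindbrain sorted cells against whole tissue. The shares of all genes called in these comparisons were 5.79%, 15.2%, 22.4% and 22.1%. The whole-tissue calls, Prkar2b and the adenylyl cyclase Adcy1, were each lost in 6 of the 8 fits with a library left out (adjusted p up to 0.427 and 0.297). On library totals the counts of sorted against whole tissue became 11 lower, and 7 lower with 0 higher. Adcy8, an adenylyl cyclase, stood at 1.40 and 1.18 CPM in telencephalic sorted cells and 4.95 and 6.75 CPM in hindbrain sorted cells, a log2 difference of 2.17 ± 0.33 (adjusted p = 0.000848 by edgeR). Prkar2b, a regulatory subunit of protein kinase A, was 0.82 ± 0.15 (adjusted p = 0.0025) higher in hindbrain sorted cells. Gnas, the Gs subunit itself, had 1529.7 to 2485 CPM and was not called in any comparison. Among the 8 tested dopamine and adrenergic receptors, 1 was lower in hindbrain whole tissue, 1 was higher and 1 lower in hindbrain sorted cells, and 1 was lower in sorted cells than in whole tissue in each region. Over all genes 5.79%, 15.2%, 22.4% and 22.1% were called in these comparisons, so with 8 genes the counts are near the background. Adra2c was the lower gene between regions, at -1.96 ± 0.50 (adjusted p = 0.0359) in whole tissue and -1.43 ± 0.44 (adjusted p = 0.0469) in sorted cells, and both calls were lost when single libraries were left out (adjusted p up to 0.257 and 0.167), the latter also on library totals (0.0568) and with only the libraries compared (0.0884). Adra2b was 1.16 ± 0.28 (adjusted p = 0.0157) higher in hindbrain sorted cells, which did not pass with telencephalic sorted replicate 2 left out (adjusted p = 0.0979) or with only the libraries compared (0.098), and it changed by -1.68 ± 0.29 (adjusted p = 0.00153) and -1.28 ± 0.26 (adjusted p = 0.00441) in sorted cells of telencephalon and hindbrain. Adarb1, one of the enzymes that edit Htr2c transcripts, had 42.1 to 82.5 CPM and was -0.56 ± 0.15 (adjusted p = 0.0241) in hindbrain against telencephalic sorted cells, a call lost on library totals (adjusted p = 0.14), and with either first sorted replicate left out (adjusted p = 0.207 for the telencephalic one and 0.0657 for the hindbrain one). Editing itself cannot be read from counts per gene.

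The genes whose log2 CPM was most like that of each member over the 8 libraries were sought among 9255 genes with at least 10 CPM in a group, as a description. The libraries compared share preparation, region or brain. For Htr2c they were Fam73a (Pearson r = 0.994), Top3b (0.993) and Pign (0.990). For Maob the first was Ly6a (0.996), a cell surface protein of the Ly6 family, followed by Zfp628 (0.965) and Mrps24 (0.954). Ly6a stood at 7.46 and 7.13 CPM in telencephalic whole tissue, 11.4 and 11.1 CPM in hindbrain whole tissue, 39.3 and 57.3 CPM in telencephalic sorted cells and 12 and 11 CPM in hindbrain sorted cells. As with Maob, the telencephalic sorted libraries were highest and the telencephalic whole ones lowest. Likeness was lower for the genes of low or level expression: the closest were Plekhm2 for Htr2b (0.955), Zfp346 for Maoa (0.911) and Enox for Ddc (0.914).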

How the data were processed

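The authors deposited raw read counts for each gene symbol, made with CASAVA 1.8.2, TopHat2 2.0.4, Bowtie2 2.0.5, HTSeq and DESeq 1 on the build mm9, per the submitters' processing notes. The sources used here do not give the annotation, the strand setting or the HTSeq version. Per the labels' protocols, cDNA was pre-amplified by a NuGEN kit, and the paired-end libraries mark no strand.

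Testing used edgeR 4.0.16 (R 4.3.3): filterByExpr over the 4 groups (minimum count 10, minimum total 15; 15698 of 23284 genes), TMM scaling, 4 group means over all 8 libraries and quasi-likelihood F tests for 5 comparisons, with Benjamini-Hochberg adjustment over all genes tested. A gene is called where its adjusted p is below 0.05. The script was tested on simulated data. Where nothing says that replicates came from separate litters, p-values measure the spread between these samples, and the replicates of each group differed by more than sampling noise (chi-square per degree of freedom 5.18 to 63.8). Exon lengths came from GENCODE M21 on GRCm38, and no coordinates are given because the files use mm9. Sequences are from RefSeq. Protein sequences were not used here.

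Per the series' design text, same-numbered libraries of a preparation come from the same brains. Their deviations from group means correlated at 0.193 in whole tissue and 0.145 in sorted cells across genes.

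The members and lists were chosen with earlier results of these data known. The text names all 6 members, up to 3 called genes per list and comparison, those of smallest adjusted p (the gene of highest mean CPM if there was none), genes within a member's locus, the 3 genes most correlated with each tested member, and library checks. Outside that rule, Tph1, Tph2, Slc6a4, Slc18a2, Htr6 and Itpr1 were chosen after their values were seen. Of 194 list genes 191 were found, 1 under an older symbol. Alternatives were DESeq2 1.42.0, its size factors in edgeR, library totals, no filter, only the libraries compared, a replicate block and each library left out. Some results for listed genes are not reported here.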

Additional observations from a re-analysis of the deposited data

Results flagged for a closer look

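The genes below had a region effect in sorted cells that differed from the region effect in whole tissue by a test of the difference itself (edgeR's quasi-likelihood test of the interaction, n = 2 libraries per group). Maob differed by -2.92 on the log2 scale: it was 4.37-fold lower in hindbrain than in telencephalic sorted cells and was not called between regions in whole tissue. Rgs4, the Gq regulator, differed by 2.07, with opposite signs in the preparations. Ly6a differed by -2.69, but it was picked for its likeness to Maob over these same libraries, so this value is a description and no separate result.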

How the results depend on the processing

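Of the 25 values of the tested members (5 genes in 5 comparisons), 23 kept their side of the threshold in every alternative run, and the other two are those of Htr2c between preparations. On library totals the members called fell to 1 in the telencephalic and 0 in the hindbrain comparison of sorted with whole, and leaving out single libraries gave 1 to 2 and 0 to 1. Left-out libraries gave 0, 1 and 1 for the regions in whole tissue, the regions in sorted cells and the interaction, as with all libraries. Over all genes, fits of only the libraries compared called 1587 in place of 909 between regions in whole tissue, 1460 in place of 2383 in sorted cells, and 2236 in place of 3472 between hindbrain preparations. The 211 genes of the interaction became 335 with DESeq2 and 441 with no low-count filter. Leaving out 1 library gave 316 to 1341, 1051 to 3253, 58 to 473, 1519 to 4501 and 1691 to 3873 calls in the 5 comparisons, in the order of the report. Library totals moved the share of calls that were higher from 57.6% to 70.7% and from 59.7% to 83.5% between regions in whole tissue and sorted cells, and from 44.1% to 10.5% and from 46.3% to 20.1% between preparations.

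With brain as a replicate block, 337 genes were called in the interaction, 1195 between regions in whole tissue and 2943 in sorted cells. The block changed no call of a member. It could not be fitted for sorted against whole tissue, since the preparations came from different brains. With 2 libraries per group, Htr2b and Ddc, at 7 to 72 counts, have 95% intervals that include a 2-fold change.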

Other observations

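Htr2c, Maoa and Maob, 3 of the 6 genes, lie on the X chromosome. Xist, the RNA that coats the inactive X chromosome, had 1051 and 1556 CPM in telencephalic whole tissue, 912 and 1123 in hindbrain whole tissue, 2087 and 1579 in telencephalic sorted cells and 2131 and 1261 in hindbrain sorted cells. It was called in 1 of the 5 comparisons, sorted minus whole in the hindbrain, at 0.74 ± 0.24 (log2, adjusted p = 0.0421 by edgeR). That call was lost with DESeq2 (adjusted p = 0.16), on library totals (0.131), when only the libraries compared were fitted (0.0567), and without hindbrain whole replicate 1 (0.201), hindbrain whole replicate 2 (0.0687) or hindbrain sorted replicate 1 (0.318). Ddx3y, a gene of the Y chromosome, had 36.7 and 26 CPM in telencephalic and 46 and 16.6 CPM in hindbrain whole tissue. In sorted cells it had 20.9 and 54.5 CPM for the telencephalon and 23.1 and 56.1 CPM for the hindbrain. Each library thus held RNA of both sexes, and the level of Ddx3y differed between replicates. The part of this in the values of the X-linked genes was not tested. The ribosomal precursor Rn45s had 36017 to 41252 CPM in whole tissue and 63038 to 166699.9 CPM in sorted cells.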
